A study of Mus musculus with 36 samples.

Results

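Cadherins and protocadherins, the calcium-dependent adhesion receptors of neurons and their progenitors, were followed through ribosome-protected fragments (RPFs) of neonatal mouse brain. The genes were chosen by symbol alone (Cdh followed by a number, Pcdh, Celsr, Fat1 to Fat4 and Dchs), with no measured value in the rule. It found 98 of the 16614 rows of the raw count table under 97 symbols, since Pcdha11 names 2 rows (ENSMUSG00000007440 and ENSMUSG00000102206). Of these, 56 belonged to the protocadherin clusters (14 alpha, 21 beta and 21 gamma genes). The other 42 comprised 5 type I cadherins, 13 type II cadherins, 3 other cadherins, 3 Celsr genes, 6 Fat and Dchs genes, 4 delta-1 protocadherins, 5 delta-2 protocadherins and 3 other protocadherins.

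The study compared C57BL/6 wild-type (WT) mice with FMR1 KO mice, which lack the RNA-binding protein FMRP. Each preparation pooled 10 whole brains, frozen at postnatal day 5, and was spun through a sucrose gradient. RPFs were sequenced from the pellet, which holds RNA granules, and from fraction 5/6, which holds ribosome clusters, beside RNA of the whole homogenate. The paper leaves unclear whether the pellet holds only stalled ribosomes of granules. It saw a rough endoplasmic reticulum marker in the pellet and not in fraction 5/6, and cites secretory messages as enriched in the pellet. The part of such ribosomes in the pellet values below was not tested. A standard preparation was made in 10 mM MgCl2 with a high amount of nuclease, and a low nuclease preparation in 2.5 mM MgCl2 with less nuclease. With 2 genotypes, 2 preparations and 3 kinds of library there were 12 groups of 3 libraries, 24 of the 36 libraries being footprints. The p-values measure the spread between these preparations only, since animals were pooled. In such bulk samples, fewer cells of a type and less RNA per cell cannot be told apart.

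As background, classical cadherins bind their like on a neighbouring cell and are anchored to actin through catenins. Celsr, Fat and Dchs proteins are very large atypical cadherins that orient cells and axons within a tissue plane. Clustered protocadherins give single neurons a combinatorial surface identity used in self-avoidance, and the delta protocadherins act in axon growth and synapse formation. RNA granules of developing neurons carry messages on ribosomes that have paused after initiation.

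The deposited footprint peaks held short stretches of these messages. Peaks of more than 1 pellet library overlapped on 4 of the genes, Cdh2, Cdh11, Cdh13 and Pcdh17. The stretches of Cdh11 and Cdh13 are shown as examples of the sequence that the RPFs covered. Cdh11, a type II cadherin of migrating and mesenchymal cells, had peaks in FMR1 KO pellet replicates 1 and 3 and WT pellet replicate 3, with heights of 14, 8 and 11. Cdh13, a cadherin held in the membrane by a lipid anchor, had peaks in WT pellet replicates 1 and 3, with heights of 12 and 6. Each stretch lies within a single coding exon. Capitals mark the bases inside every listed peak, 6 in Cdh11 and 20 in Cdh13, and the sequence is that of GENCODE M21 transcripts on GRCm38, 5′ to 3′ on the coding strand.
Cdh11, chr8:102634465-102634494, minus strand: tgactccatCCAAATctatggttatgaggg
Cdh13, chr8:119242342-119242371, plus strand: ggaccccATGATGGTGACTAAACAGGAgaa
The Cdh11 stretch covers bases 3248 to 3277 of a transcript whose coding sequence runs from 1038 to 3425. The Cdh13 stretch covers bases 1558 to 1587, with coding sequence from 122 to 2263.

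Peaks on these genes were few. Over the standard libraries, 28 peaks fell on 7 of the genes (Cdh2, Cdh11, Cdh13, Cdh15, Celsr2, Pcdh17 and Pcdhga11), 24 of them in pellet libraries and 4 in fraction 5/6 libraries. A library held 0 to 8 of them among 11389 to 36435 peaks in all. By position, 27 lay in coding sequence and 1 in a 5′ UTR, and 14 were on Pcdh17. Their heights of 0 to 14 were at or below the library medians of 14 to 16. The replicate 2 library of each of the 4 groups held none, so that sharing of a position by all 3 libraries of a group could not be examined.

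Several libraries stood apart from their labels or from their group. Fmr1 was read at 64.6 to 67.8 CPM (counts scaled to an equal library total, here always without Cdk8) in WT pellets and 4.79 to 4.93 CPM in FMR1 KO pellets. The library labelled WT fraction 5/6 replicate 3 held 3.17 CPM of Fmr1 against 100.1 and 68.6 CPM in the other WT fraction 5/6 libraries. It is called the doubted library below, and results that use it are given with and without it. The standard FMR1 KO RNA libraries held 0.107 to 0.213 CPM of Y-chromosome genes against 84.8 to 102.2 CPM in WT RNA, while the standard footprints of both genotypes held 61.7 to 98.5 CPM. The FMR1 KO RNA and footprints thus differed in Y genes, which touches the X-linked Pcdh19 and Pcdh11x and every FMR1 KO ratio to RNA, and their part in those ratios was not tested. Cdk8 took 36.7% to 63.4% of the counts of standard footprint libraries and was removed, leaving 4284209 to 21274803 counts, while standard RNA libraries held 112249206 to 147216378 counts. At these depths 7 to 30 of the 98 genes had fewer than 10 counts in a standard footprint library. Some marker sets of other cells moved with the kind of library. The 6 oligodendrocyte-lineage markers summed to 100.45 to 210 CPM in standard footprints and 472 to 862 CPM in standard RNA, the 5 fibroblast markers to 9.65 to 28.8 and 45.8 to 165 CPM, and the 5 neuronal markers to 4072 to 8669 and 4377 to 5540 CPM. The microglial markers, at 58.1 to 135 and 160 to 179 CPM, did not overlap either. Those of astrocytes and radial glia, at 813 to 1503 and 711 to 1141 CPM, overlapped. So did those of choroid plexus, at 19.1 to 102.2 and 23.5 to 102.1 CPM. The part of these cells in the differences below was not tested.

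The counts covered whole gene spans. In 799 of 799 pairs with a gene lying inside another, the outer count was at least the inner count in all 36 libraries, including 165 pairs on opposite strands without a shared exon. Reads of introns and of either strand therefore enter a count. Values are uncertain for genes with such neighbours, namely Cdh15 (Galnt2l), Cdh23 (Vsir), Cdh12 (Acot10), Cdh24 (Gm17606) and all 21 beta protocadherins, which lie inside longer gene models (Gm37013, Gm37388 and Gm42416). The alpha and gamma rows are nested in each other and are described apart.

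The 98 genes together took 0.152% to 0.243% of the counts of WT standard pellets, 0.0934% to 0.164% of FMR1 KO pellets and 0.121% to 0.166% of standard RNA. A single gene, Pcdh17, a delta-2 protocadherin of axon bundles and presynaptic terminals, made up much of this. Without it the share was 0.0528% to 0.0977% in WT pellets and 0.0660% to 0.124% in FMR1 KO pellets, against 0.115% to 0.159% in RNA. Per kilobase of coding sequence, the Pcdh17 level in WT standard pellets was 339 ± 198 CPM (SD, n = 3). The next levels per kilobase were those of Cdh4 at 15.4 ± 1.12 CPM, Pcdh7 at 11.1 ± 2.2 CPM, Cdh13 at 10.9 ± 3.45 CPM and Cdh2 at 9.4 ± 3.94 CPM. Of these, Pcdh7, Cdh13 and Cdh2 did not differ beyond their spread. Pcdh12, Cdh19 and Cdh26 were lowest, at 0.040, 0.062 and 0.068 CPM per kilobase.

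Whether the messages sat in the pellet rather than in fraction 5/6 was compared first. With all libraries of the standard preparation, 78 of 89 genes in WT and 87 of 89 in FMR1 KO had a log2 pellet over fraction 5/6 value above 0, with medians of 0.55 and 0.77 against -0.04 over all genes in both. Of these, 35 were nested alpha and gamma rows that share reads and were all above 0. Outside them 43 of 54 in WT and 52 of 54 in FMR1 KO were above 0, beside 46.0% and 47.0% of all genes. By edgeR's quasi-likelihood test none was called in either genotype. At an unadjusted p under 0.05 there were 5 in WT and 38 in FMR1 KO, all higher in the pellet, beside 1662 and 3730 of 13749 over all genes in either direction. DESeq2 called 8 of 89 higher in FMR1 KO against 8.53% of all genes, a share near that background. Over all genes edgeR called 0.00727% higher in WT and 0 in FMR1 KO.

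Without the library labelled WT fraction 5/6 replicate 3, 31 of 89 genes in WT and 24 of 89 in FMR1 KO were higher in the pellet and 0 were lower, against 10.1% and 11.1% of all genes tested called higher. The fit holds both genotypes, so leaving out that library also moved the FMR1 KO calls. Many of the genes called were nested gamma rows. Outside the alpha and gamma clusters 10 and 11 of 54 were called. In the low nuclease preparation 55 of 98 in WT and 57 of 98 in FMR1 KO were higher and 0 lower, against 13.4% and 12.7% of all genes, and outside the alpha and gamma clusters these were 40 and 34 of 63. The genes called in both preparations numbered 13 in WT, which is 41.9% of the standard list and 23.6% of the low nuclease list, and 23 in FMR1 KO, which is 95.8% and 40.4%. Outside the alpha and gamma clusters they numbered 10 of 54 in each genotype, beside 7.7% and 8.39% of all genes tested in both preparations. The interaction with genotype was called for none in either preparation by edgeR, with 2 genes in each at an unadjusted p under 0.05, beside 765 of 13749 and 1351 of 15929 over all genes. Over all genes it called 0 in the standard preparation and 0.0126% higher and 0.00628% lower under low nuclease.

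Coding length moved with this ratio over all genes. The Spearman correlation of the log2 pellet over fraction 5/6 value with coding length, across genes that are not independent replicates and share libraries, was 0.44 in WT and 0.54 in FMR1 KO without the doubted library, and 0.47 and 0.59 in the low nuclease preparation. Among the cadherin genes outside the alpha and gamma clusters it was 0.15 in both genotypes (n = 54), and 0.11 and 0.01 in the low nuclease preparation (n = 63). These genes had a median coding length of 2403 bases against 1410 over all genes. Among genes with at least 2000 coding bases, a bound chosen after the data were seen, 29.1% in WT and 31.7% in FMR1 KO were called higher in the standard pellet, beside 10 and 11 of the 54 cadherin genes. Of such long genes 34.6% and 35.3% were called in the low nuclease preparation, beside 40 and 34 of the 63 cadherin genes. Many of those 40 and 34 were beta protocadherins, whose counts are uncertain and whose calls are given with the clusters below. The medians that follow include them. The medians of the cadherin genes were above those of long genes, at 1.09 against 0.42 in WT and 1.03 against 0.48 in FMR1 KO in the standard preparation, and at 1.49 against 0.39 and 1.09 against 0.42 in the low nuclease preparation. The part of coding length in the ratio was not tested beyond these values.

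Celsr2, an atypical cadherin that guides ependymal cilia and neuronal migration, lies on chr3:108390851-108415552. It had 17.5, 16.3 and 37.1 CPM in WT standard pellets and 25.4, 10.1 and 25.5 CPM in FMR1 KO pellets. Its fraction 5/6 libraries had 4.87 and 1.59 CPM in WT, 26.0 CPM in the doubted library, and 7.12, 4.93 and 10.5 CPM in FMR1 KO. Outside the doubted library, which lay above WT pellets 1 and 2, pellets were higher except for an overlap of FMR1 KO pellet replicate 2 with fraction 5/6 replicate 3. Without the doubted library its log2 ratio was 2.90 (SE 0.52, adjusted p = 0.0067) in WT and 1.77 (SE 0.42, adjusted p = 0.024) in FMR1 KO. The low nuclease pellets held 91.5, 101 and 130 CPM in WT and 35.8, 80.6 and 94.5 CPM in FMR1 KO, all above the 14.1 to 33.7 CPM of fraction 5/6.

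Celsr3, which directs the long axon tracts of the forebrain, lies on chr9:108826320-108852969. It had 9.49, 9.81 and 12.7 CPM in WT pellets and 13.6, 7.34 and 10.7 CPM in FMR1 KO pellets. Fraction 5/6 held 1.93 and 2.38 CPM in WT, 13.8 CPM in the doubted library, and 3.71, 3.26 and 4.90 CPM in FMR1 KO, so that outside that library the groups did not overlap. The log2 ratio without it was 2.25 (SE 0.32, adjusted p = 0.0021) in WT and 1.74 (SE 0.27, adjusted p = 0.0026) in FMR1 KO. Celsr1, the family member of progenitors, showed no such separation. Its WT pellets held 2.49, 2.45 and 5.62 CPM and its WT fraction 5/6 held 4.09 and 9.42 CPM, with 2.60 CPM in the doubted library. They overlapped with or without that library. In FMR1 KO pellets it had 2.27, 85.0 and 2.48 CPM, a single library (replicate 2) standing far above the rest, and its log2 ratio in WT without the doubted library was -1.10, not called.

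The giant cadherins Fat1 and Fat4 and the Fat4 ligand Dchs1 were also read more in the pellet. Dchs1 (chr7:105752990-105787654) had 12.8, 12.3 and 21.5 CPM in WT pellets and 24.3, 10.8 and 19.5 CPM in FMR1 KO pellets. Its fraction 5/6 libraries had 3.25 and 2.72 CPM in WT, 21.4 CPM in the doubted library, and 4.13, 3.87 and 8.64 CPM in FMR1 KO. Outside that library every pellet was above every fraction 5/6 library of its genotype, with log2 ratios of 2.34 (SE 0.37, adjusted p = 0.0037) and 2.11 (SE 0.31, adjusted p = 0.0022). Fat4 (chr3:38886940-39011985), its receptor, had 30.3, 30.8 and 40.3 CPM in WT pellets against 14.2 and 8.17 CPM in WT fraction 5/6 and 34.5 CPM in the doubted library. Its FMR1 KO pellets held 47.7, 21.9 and 34.4 CPM and fraction 5/6 held 11.5, 12.8 and 26.4 CPM, which overlap. The Fat4 ratios were 1.58 (SE 0.27, adjusted p = 0.0047) in WT and 1.44 (SE 0.23, adjusted p = 0.0032) in FMR1 KO. Fat1 (chr8:44935447-45052257), which acts at actin-rich cell edges, had 18.4, 19.2 and 30.1 CPM in WT pellets and 35.0, 19.6 and 27.5 CPM in FMR1 KO pellets. Fraction 5/6 held 3.85 and 8.85 CPM in WT, 29.0 CPM in the doubted library, and 7.22, 4.70 and 9.57 CPM in FMR1 KO. Fat1 passed the test in FMR1 KO, at 2.29 (SE 0.44, adjusted p = 0.0089), and not in WT, at 1.68 (SE 0.50, adjusted p = 0.057).

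Dchs2 was called in FMR1 KO without the doubted library at 1.18 (SE 0.23, adjusted p = 0.0088), from pellets of 7.26, 4.87 and 6.89 CPM and fraction 5/6 of 3.71, 2.88 and 3.73 CPM. In WT its ratio of 0.76 was not called (adjusted p = 0.083). Fat2, a cadherin of cerebellar granule cells, and Fat3, of retinal and other interneurons, had scattered libraries in the standard preparation. The Fat3 level was 23.5, 19.1 and 83.8 CPM in WT pellets. It was 16.7 and 57.7 CPM in WT fraction 5/6 and 18.2 CPM in the doubted library. The groups did not separate with or without that library. Under low nuclease Fat3 separated, with WT pellets of 69.2, 70.7 and 88.6 CPM against fraction 5/6 of 13.4, 22.8 and 33.6 CPM (log2 1.85, adjusted p = 0.0058).

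**Figure D1:**
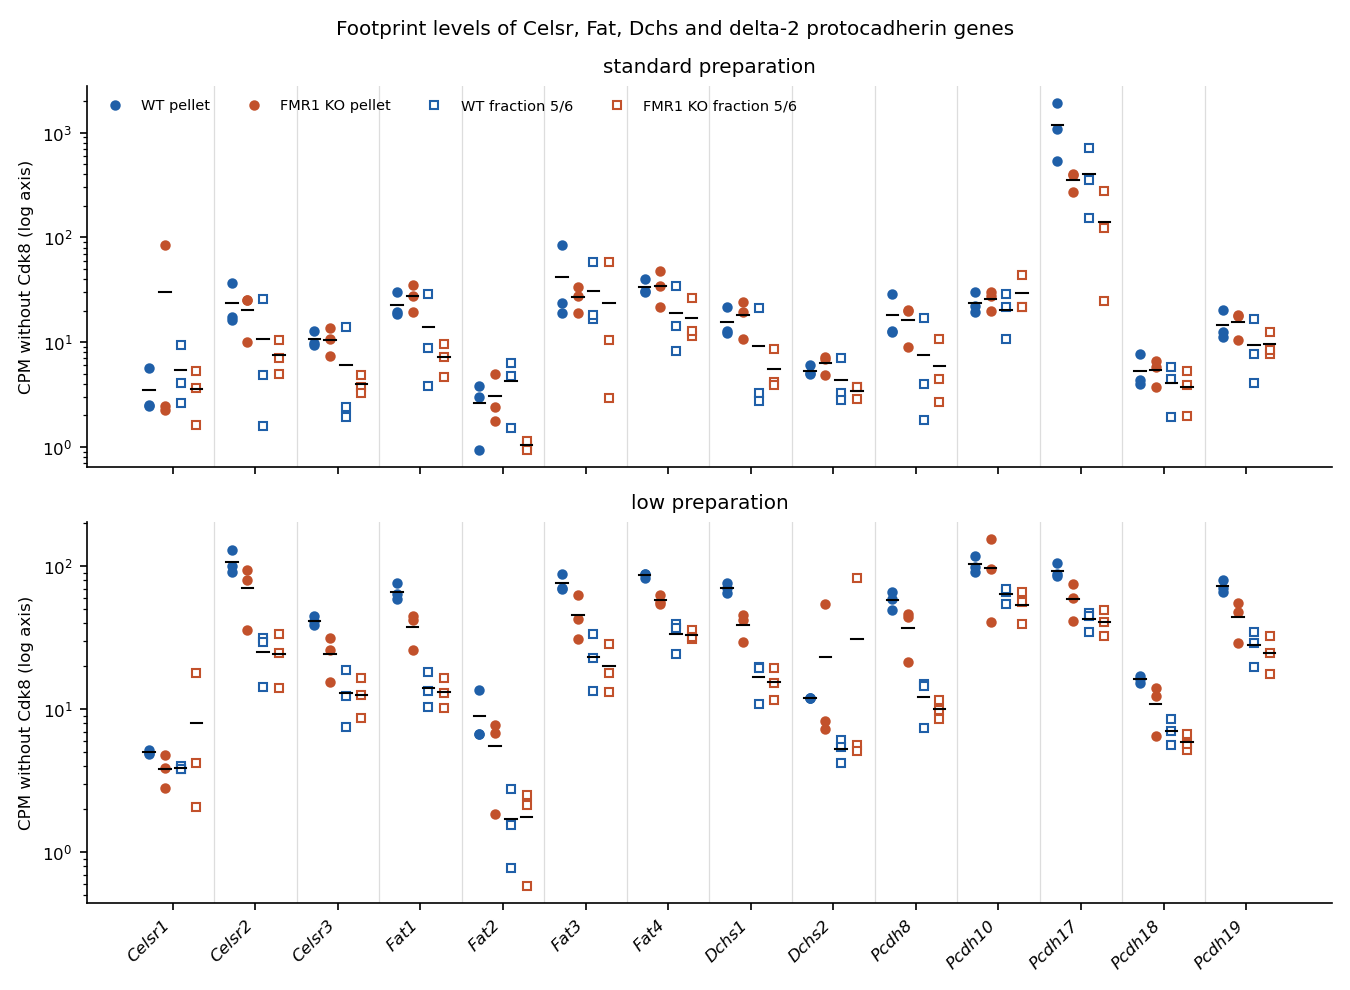
Levels of the Celsr, Fat, Dchs and delta-2 protocadherin genes in footprint libraries, in CPM without Cdk8 on a log axis, the standard preparation in the upper panel and the low nuclease preparation in the lower. Filled circles are pellet and open squares fraction 5/6 libraries, with WT in blue and FMR1 KO in orange. Each black bar is the mean of 3 libraries, and the standard WT fraction 5/6 bar includes the doubted library. For Celsr2 in the low nuclease preparation every pellet lies above the 33.7 CPM of the highest fraction 5/6 library.

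With low nuclease, 5 of 6 Fat and Dchs genes in WT and 4 of 6 in FMR1 KO were called higher in the pellet, beside 13.4% and 12.7% of all genes, with median log2 ratios of 2.03 and 1.48. Of the 3 Celsr genes 2 were called in each genotype, with medians of 1.81 and 1.15. In WT the Fat1 ratio was 2.37 (SE 0.24, adjusted p = 0.00033), that of Dchs1 was 2.21 (SE 0.24, adjusted p = 0.00044) and that of Fat4 was 1.49 (SE 0.14, adjusted p = 0.00028). Celsr1 and Dchs2 were below 0 in FMR1 KO, at -0.85 and -0.29, where single libraries were far from the others (Dchs2 at 54.4 CPM in pellet replicate 2 and 82.3 CPM in fraction 5/6 replicate 1).

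Delta-2 protocadherins recruit actin regulators at contact sites, and 4 of 5 of them were called higher in the low nuclease pellet in each genotype, beside 13.4% and 12.7% of all genes. Pcdh8, a delta-2 protocadherin that is taken up from synapses after activity, lies on chr14:79766775-79771312. It had 12.7, 12.6 and 28.7 CPM in WT standard pellets against 3.97 and 1.82 CPM in WT fraction 5/6 and 17.0 CPM in the doubted library. Its FMR1 KO pellets held 19.9, 8.94 and 20.3 CPM and its fraction 5/6 libraries 2.68, 4.47 and 10.7 CPM, with pellet replicate 2 below fraction 5/6 replicate 3. Without the doubted library its log2 ratio was 2.65 (SE 0.54, adjusted p = 0.013) in WT and 1.91 (SE 0.45, adjusted p = 0.022) in FMR1 KO. Pcdh19, an X-linked gene whose loss causes epilepsy, had ratios of 1.33 (adjusted p = 0.019) and 1.05 (adjusted p = 0.026). Its pellets held 12.6, 11.1 and 20.5 CPM in WT and 18, 10.5 and 18.3 CPM in FMR1 KO, against fraction 5/6 levels of 7.64 and 4.09 CPM in WT, 16.6 CPM in the doubted library, and 7.74, 8.34 and 12.6 CPM in FMR1 KO. The groups overlapped in FMR1 KO and, outside that library, not in WT.

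Of the delta-1 protocadherins, Pcdh1 was called without the doubted library in WT at 1.79 (SE 0.42, adjusted p = 0.023) and not in FMR1 KO (adjusted p = 0.053), and with all libraries in neither. Its pellets held 15.7, 13.7 and 32.5 CPM in WT and 23.1, 11.8 and 22.5 CPM in FMR1 KO, against fraction 5/6 of 7.58 and 4.43 CPM in WT, 22.2 CPM in the doubted library, and 6.71, 9.47 and 16.6 CPM in FMR1 KO. Under low nuclease Pcdh1, Pcdh7 and Pcdh11x were called in both genotypes. Pcdh11x, an X-linked gene, had low nuclease WT pellets of 56.4, 51.1 and 58.6 CPM above fraction 5/6 of 38.2, 44.8 and 40.4 CPM, with ratios of 0.54 (adjusted p = 0.0081) in WT and 0.56 (adjusted p = 0.0068) in FMR1 KO.

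Classical cadherins bind through their outermost domain. Under low nuclease, 1 of 5 type I cadherins in WT and 2 of 5 in FMR1 KO, and 3 and 2 of 13 type II cadherins, were called higher, beside 13.4% and 12.7% of all genes, with medians of 0.95 and 0.89 for type I and of 0.86 and 0.71 for type II. Cdh6, an early regional marker of the forebrain, was called in both genotypes and both preparations, at 1.37 (adjusted p = 0.018) and 1.23 (adjusted p = 0.013) in the standard preparation without the doubted library. Its standard pellets held 5.69, 6.22 and 9.39 CPM in WT and 9.92, 6.46 and 10.0 CPM in FMR1 KO, against fraction 5/6 of 3.79 and 1.70 CPM in WT, 8.70 CPM in the doubted library, and 4.23, 4.55 and 5.14 CPM in FMR1 KO. Cdh2 (N-cadherin), the main cadherin of neural progenitors and synapses, had 19.0, 19.7 and 37.9 CPM in WT pellets and 12.2 and 9.42 CPM in WT fraction 5/6, with 29.6 CPM in the doubted library, above WT pellets 1 and 2. Without that library its ratio of 1.21 was not called (adjusted p = 0.073). In FMR1 KO it was called only in the low nuclease preparation, at 1.25 (adjusted p = 0.043). Lowest in WT without the doubted library was Cdh22, a type II cadherin, at -1.93 (adjusted p = 0.15). Its fraction 5/6 libraries held 13.3 and 33.1 CPM, and the doubted library 7.48 CPM.

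**Figure D2:**
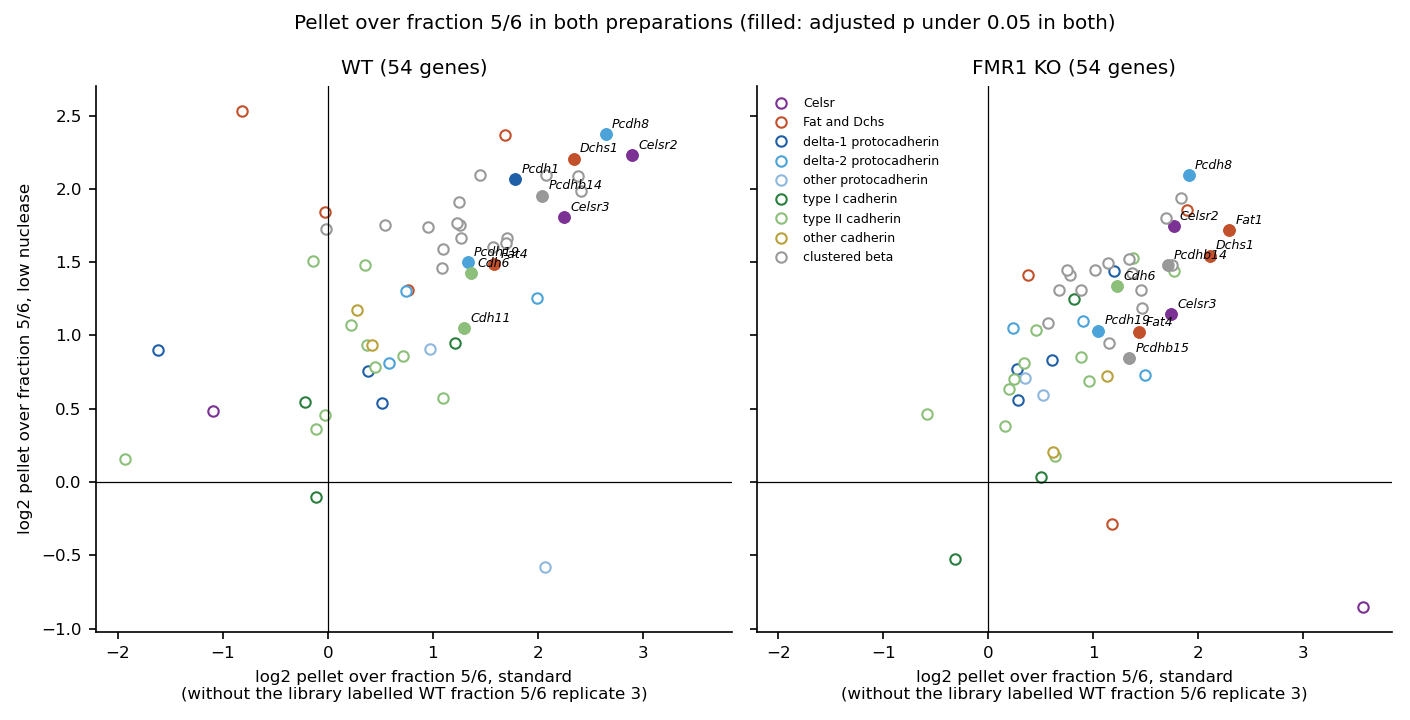
Log2 pellet over fraction 5/6 for 54 genes outside the alpha and gamma clusters in each genotype, the standard preparation without the library labelled WT fraction 5/6 replicate 3 on the x axis and the low nuclease preparation on the y axis. Filled points passed the test in both preparations; most points lie above 0 on both axes, with Celsr2 at 2.90 and 2.23 in WT.

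The occupancy, here the log2 ratio of pellet RPFs to homogenate RNA, asked which messages had more pellet RPFs than their abundance would give. The scale needs care, since it rests on normalisation. By library size alone the median of all genes was -1.25 in WT and -1.15 in FMR1 KO, and by the TMM method used here it was -0.15 and -0.07, so changes are given on the TMM scale and mean a change relative to most genes. The pellet and fraction 5/6 ratios share the same RNA libraries. On this scale 12 of 98 genes in WT were higher and 10 lower, against 30.6% and 35.9% of all genes tested. In FMR1 KO 19 were higher and 10 lower, against 31.7% and 34.8% of all genes. Of those called higher, 4 in each genotype had a lower mean CPM in pellets than in RNA (Dchs2, Cdh10, Pcdhb4 and Pcdhb15 in WT, Dchs2, Cdh10, Cdh6 and Fat1 in FMR1 KO), so their direction rests on the TMM scale. These shares of all genes, of either direction together 66.5% in WT and 66.5% in FMR1 KO, are the background of the counts. Outside the alpha and gamma clusters 12 higher and 7 lower of 63 remained in WT and 19 and 8 in FMR1 KO, with medians of 0.23 and 0.51. The median of genes with at least 2000 coding bases was 0.41 and 0.50, with 45.5% and 47.2% called higher.

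Pcdh17 had the largest WT ratio among the 98 genes, at 5.24 (SE 0.38, adjusted p = 4.1e-07) in WT and 3.50 (SE 0.35, adjusted p = 5e-06) in FMR1 KO. Its count covers the whole gene span, and its deposited peaks were all below the median height of their library. How much of the count lay on its message was not tested. The gene is described with the genotypes below, where its ratio turned under low nuclease. Cdh4 (R-cadherin, chr2:179442431-179899373), a cadherin of retinal axons, was 41.6, 39.5 and 45.5 CPM in WT pellets and 36.7, 31.0 and 28.9 CPM in WT RNA. In FMR1 KO it was 40.7, 28.8 and 29.5 CPM in pellets and 27.8, 24.4 and 33.3 CPM in RNA, overlapping in plain CPM. Its ratio was 1.5 (SE 0.18, adjusted p = 1.6e-05) in WT and 1.32 (SE 0.17, adjusted p = 4.4e-05) in FMR1 KO. Pcdh8 was higher at 1.57 (SE 0.39, adjusted p = 0.0038) and 1.38 (adjusted p = 0.0083), its RNA libraries holding 11.0, 13.6 and 15.1 CPM in WT and 15.5, 7.24 and 16.8 CPM in FMR1 KO. Cdh10, a type II cadherin of cortical circuits, was called higher at 0.80 (adjusted p = 0.042) and 0.97. Its pellets held 14.8, 8.59 and 14.5 CPM in WT and 13.6, 5.58 and 18.9 CPM in FMR1 KO, against RNA of 20.9, 13.4 and 13.3 CPM and of 13.8, 13.7 and 12.1 CPM, which overlap and do not have a higher pellet mean in either genotype.

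Dchs2 was called higher at 0.44 (SE 0.16, adjusted p = 0.029) in WT and 0.87 (adjusted p = 0.00053) in FMR1 KO, although its WT pellets of 4.98, 5.07 and 6.04 CPM lay below its WT RNA of 9.22, 9.04 and 7.30 CPM. Cdh6 in FMR1 KO, at 0.57 (adjusted p = 0.033), turned in the same way, with RNA of 13.6, 10.2 and 13.8 CPM. Pcdh7, a delta-1 protocadherin of the developing brain, was called in FMR1 KO, at 2.1 (SE 0.37, adjusted p = 0.00039), from pellets of 82.6, 124 and 51.1 CPM and RNA of 50.1, 42.5 and 46.6 CPM. In WT pellets Pcdh7 held 33.1, 49.5 and 42.4 CPM and was not called. The Celsr1 ratio of 3.99 in FMR1 KO (SE 1.22, adjusted p = 0.013) came from the single library of 85.0 CPM and was -0.12 without it.

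RPFs were low against RNA abundance on several type II and unusual cadherins. Cdh24, a type II cadherin, had 0.705, 0.818 and 0.923 CPM in WT pellets against 6.42, 7.35 and 7.98 CPM in WT RNA. Its ratio of -2.06 (SE 0.21, adjusted p = 5.5e-06) in WT and -1.28 (SE 0.20, adjusted p = 0.00015) in FMR1 KO, where pellets held 1.43, 1.28 and 1.60 CPM and RNA 8.36, 5.97 and 8.01 CPM, came with pellet and RNA libraries that did not overlap. Cdh15 (M-cadherin), best known from muscle, had 0.987, 1.47 and 0.839 CPM in WT pellets and 8.21, 9.08 and 5.70 CPM in WT RNA, at -1.72 (SE 0.30, adjusted p = 0.00039) in WT and -1.89 (SE 0.32, adjusted p = 0.00028) in FMR1 KO. Cdh12, a type II cadherin of cortical neurons, had 3.53, 3.76 and 5.62 CPM in WT pellets and 29.9, 20.9 and 20.9 CPM in WT RNA, with ratios of -1.37 (adjusted p = 0.00052) and -0.91 (adjusted p = 0.0066). All 3 overlap another gene in the annotation, so part of their counts may belong to that neighbour.

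Cdh23, whose protein with that of Pcdh15 forms the tip link of hair cells, had ratios of -1.34 (adjusted p = 0.0042) and -0.93 (adjusted p = 0.03), with 4.09, 2.86 and 2.60 CPM in WT pellets and 28.2, 12.9 and 11.8 CPM in WT RNA. Pcdh9, a delta-1 protocadherin of cortical neurons, had 17.5, 20.4 and 23.7 CPM in WT pellets and 132, 78.2 and 74.4 CPM in WT RNA, at -1.10 (SE 0.22, adjusted p = 0.00094) and -1.01 (adjusted p = 0.0017). Pcdh10, a delta-2 protocadherin of striatal axons linked to autism, was also lower, at -0.69 (SE 0.18, adjusted p = 0.0056) and -0.59 (adjusted p = 0.013). Its levels were 22.0, 19.3 and 30.3 CPM in WT pellets and 84.1, 83.1 and 84.1 CPM in WT RNA. Intron reads enter the counts of all these genes, and Cdh12, Pcdh9 and Cdh23 span 1140269, 877270 and 393743 bases. Cdh15, Cdh24 and Pcdh10, also lower, span 19432, 10134 and 57226 bases. The part of intron reads in these ratios was not tested. By family, type II cadherins had 1 higher and 3 lower of 13 in WT and 4 and 3 in FMR1 KO. Beta protocadherins had 7 higher and 0 lower of 21 in WT, and 7 higher and 1 lower in FMR1 KO.

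Of the atypical cadherins called in pellet over fraction 5/6, Fat1 and Dchs2 were also called in occupancy, Dchs2 with the values above. The shares of all genes called, given above, are the background of this. Dchs1 was not called. Celsr2 was at 0.44 and 0.21, Celsr3 at -0.21 and -0.07 and Fat4 at 0.21 and 0.25 in WT and FMR1 KO, none of them called. Fat1 was called in FMR1 KO alone, at 0.64 (adjusted p = 0.017), on the TMM scale only, since its RNA of 38.4, 33.4 and 39.8 CPM had a higher mean than the pellets given above. The difference of these ratios between genotypes was tested by the interaction, which is given below. Cdh2 at 0.36 and 0.41 was not called either. Cdh5 (VE-cadherin), the cadherin of blood vessels, was called in FMR1 KO at 1.18, from pellets of 2.27, 1.68 and 2.00 CPM and RNA of 1.56, 2.04 and 2.01 CPM, which overlap. The 6 endothelial markers summed to 3.29 to 12.8 CPM in standard footprints and 10.1 to 16.6 CPM in standard RNA, and their part was not tested.

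Under low nuclease the occupancy of this group was lower. There 0 of 98 genes in WT were higher and 26 lower, against 23.1% and 18.9% of all genes, and in FMR1 KO 1 was higher and 38 lower, against 22.3% and 19.4%. Celsr2 was at -1.95 and -1.80, Fat1 at -1.52 and -1.92 and Dchs1 at -1.54 and -1.69. The low nuclease RNA was uneven, since replicate 2 of WT held 69.3% of its counts in 5 genes, and replicates 2 and 3 of FMR1 KO held 74.5% and 71.4%.

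**Figure D3:**
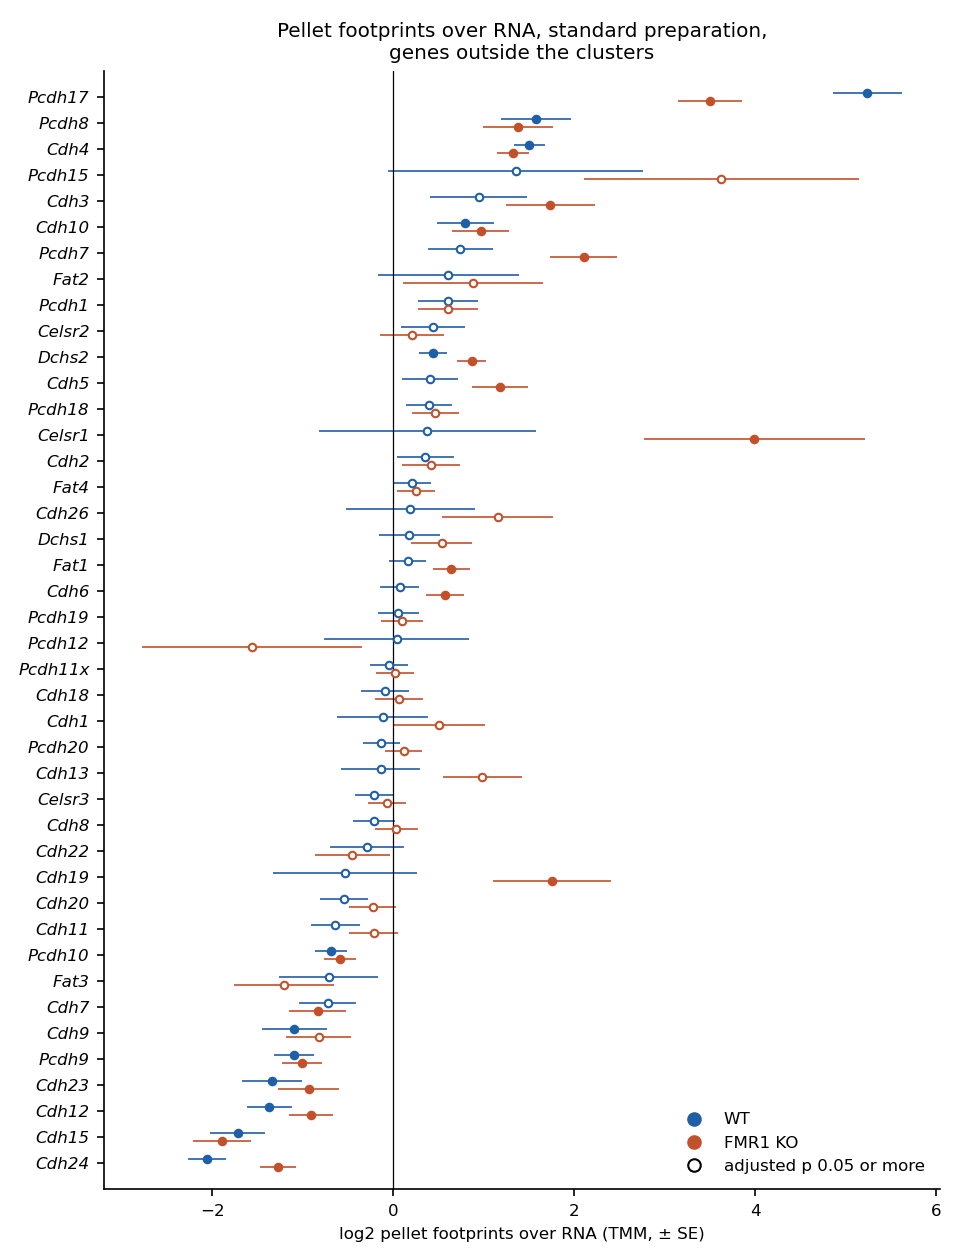
Log2 pellet over RNA, with SE, for the 42 genes outside the protocadherin clusters in the standard preparation, WT in blue and FMR1 KO in orange. Open points had an adjusted p of 0.05 or more; Pcdh17 is highest in WT at 5.24, and Cdh24 at -2.06 and Cdh15 at -1.89 are among the lowest.

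Fraction 5/6 was set against RNA in the same way. In WT 6 of 98 genes were higher and 17 lower, against 31.0% and 30.4% of all genes (61.4% together), and in FMR1 KO 2 were higher and 31 lower, against 27.8% and 29.8%. Without the library labelled WT fraction 5/6 replicate 3, 58 were lower in WT against 32.3% of all genes, and 53 in FMR1 KO against 32.9%, while 6 and 3 were higher. Many of these were nested rows. Outside the alpha and gamma clusters 6 higher and 10 lower of 63 were called in WT and 2 and 15 in FMR1 KO with all libraries, and 6 and 23 in WT and 3 and 19 in FMR1 KO without the doubted library. With stretch counts in place of nested rows, as defined with the clusters below, and all libraries, 16 were higher and 13 lower in WT. In FMR1 KO 5 were higher and 19 lower. Of the stretches, 3 alpha and 7 gamma were higher in WT and 1 and 2 lower. In FMR1 KO 1 and 2 were higher and 3 and 1 lower. Without the doubted library 1 alpha and 3 gamma stretches were higher in WT and 2 and 2 lower. In FMR1 KO 2 and 4 were then higher and 3 and 2 lower. The shares of all genes, for the rows as deposited, are those above. The genes that fell in both genotypes without the doubted library included Celsr3 (-2.36, adjusted p = 7.3e-05, in WT and -1.66, adjusted p = 0.00018, in FMR1 KO). Celsr2 (-2.26, adjusted p = 0.00022, and -1.41, adjusted p = 0.0013) and Dchs1 (-2.02, adjusted p = 0.00096, and -1.43, adjusted p = 0.0026) fell as well. Fat1 (-1.42 and -1.5) and Fat4 (-1.22 and -1.04) completed that set of atypical cadherins. Pcdh17 was higher in fraction 5/6 as in the pellet, at 3.38 and 2.15 without the library and at 3.87 and 2.15 with it.

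Between genotypes no cadherin or protocadherin passed the test. In RNA none of 98 was called by edgeR, with 0 at an unadjusted p under 0.05 (DESeq2 called 0, with 2 unadjusted), against 0.0735% of all genes called. In the pellet none of 86 was called, against 0.0152% of all genes, with 3 higher and 1 lower at an unadjusted p under 0.05, a share near that of all genes (703 of 13171). In fraction 5/6 none of 74 was called and 0 of all genes, with 2 lower unadjusted, Fat2 and Cdh10, beside 598 of 13108. DESeq2 called 1 gene in each footprint comparison, Pcdh17 lower in the pellet and Cdh10 lower in fraction 5/6, where it called 0.235% and 0.565% of all genes lower. The Cdh10 call counts the doubted library as WT, and no DESeq2 result without it is given. Without the doubted library the members called in fraction 5/6 by edgeR were again 0, of 72. Low nuclease libraries gave 0 as well in each of these comparisons, against 0.0197% of all genes called lower in the pellet and 0.0254% in fraction 5/6. At an unadjusted p under 0.05 the members numbered 12 of 96 in the pellet and 19 of 97 in fraction 5/6, all lower, beside 662 of 15263 and 1345 of 15739 over all genes in either direction. The 12 in the pellet lay outside the alpha and gamma clusters, but 18 of the 19 in fraction 5/6 were nested gamma rows and 1 of 62 lay outside. With low nuclease stretch counts, chosen after seeing the data, 1 gamma stretch (Pcdhga12) of 21 had such a p in fraction 5/6, and 9 gamma and 2 alpha stretches in the pellet, all lower and none called. The interaction of genotype with occupancy called none of 98, against 0.0669% of all genes (0.0487% higher), with 3 higher and 1 lower unadjusted, beside 1007 of 16437. On simulated data the pellet comparison recovered 16.5% of genes changed 2-fold and 78% of those changed 4-fold. Most 2-fold differences would thus have been missed. The simulated counts followed the spread fitted as a trend over genes, without outlying libraries, so these shares may overstate recovery.

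The lower gene of the pellet comparison was Pcdh17 (chr14:84443563-84539002). It had 1903, 1086 and 539 CPM in WT standard pellets and 399.8, 274 and 394 CPM in FMR1 KO pellets. Every FMR1 KO pellet was below every WT pellet. The difference of -1.69 on the log2 scale (SE 0.43) had an unadjusted p of 0.0068 and an adjusted p of 0.86 by edgeR. DESeq2 gave -1.68 with an adjusted p of 0.0031. Its RNA did not move with genotype, with 66.3, 67.1 and 67.3 CPM in WT and 66.3, 62.6 and 72.0 CPM in FMR1 KO, a log2 difference of 0.03 (SE 0.09). Pcdh17 in fraction 5/6 had 152 and 351 CPM in WT, 716 CPM in the doubted library, and 122, 277 and 25.0 CPM in FMR1 KO, which overlap. The interaction of genotype with occupancy was -1.74 (adjusted p = 0.74), and without WT pellet replicate 3, the lowest of its group, it was -2.1 with an adjusted p of 0.041.

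The Pcdh17 excess was found in standard libraries. Its low nuclease pellets held 85.8, 88.1 and 106 CPM in WT and 41.6, 75.7 and 59.9 CPM in FMR1 KO. Its ratio to RNA then turned to -1.12 (adjusted p = 0.011) in WT and -1.5 (adjusted p = 0.0026) in FMR1 KO, the RNA libraries running from 20.0 to 295 CPM. Standard over low nuclease pellets gave 4.19 (SE 0.42, adjusted p = 0.00019) in WT and 3.09 (SE 0.40, adjusted p = 0.00072) in FMR1 KO.

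The other genes with an unadjusted p under 0.05 in the pellet were Pcdh7 (log2 FMR1 KO over WT of 1.21), Cdh24 (0.86) and Pcdhb15 (0.86), each with an adjusted p of 0.86. Without FMR1 KO pellet replicate 2 the Pcdh7 difference was 0.57 and that of Cdh24 was 0.77. The Pcdh7 libraries of fraction 5/6 ran from 36.1 to 171 CPM in WT and from 20.8 to 141 CPM in FMR1 KO.

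Some genes varied more between libraries of a group than between groups. Pcdh15 (chr10:73099342-74649737), a very long gene of hair cells, had 5.78, 6.05 and 106 CPM in WT standard pellets and 440.8, 7.74 and 9.37 CPM in FMR1 KO pellets. Its fraction 5/6 libraries of the same replicates were 10.7, 8.4 and 123 CPM in WT and 290 (replicate 1), 8.11 and 15.9 CPM in FMR1 KO. The 123 CPM belong to the doubted library. The high libraries carried the same replicate number in both kinds, WT 3 and FMR1 KO 1, which for WT rests on that library, while RNA ranged from 21.7 to 51.8 CPM. Its pellet to RNA ratio of 3.62 in FMR1 KO (SE 1.52) had an adjusted p of 0.054. Cdh4 did so in the low nuclease preparation, with 556, 419 and 77.8 CPM in WT pellets and 292, 466 and 85.0 CPM in FMR1 KO pellets.

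**Figure D4:**
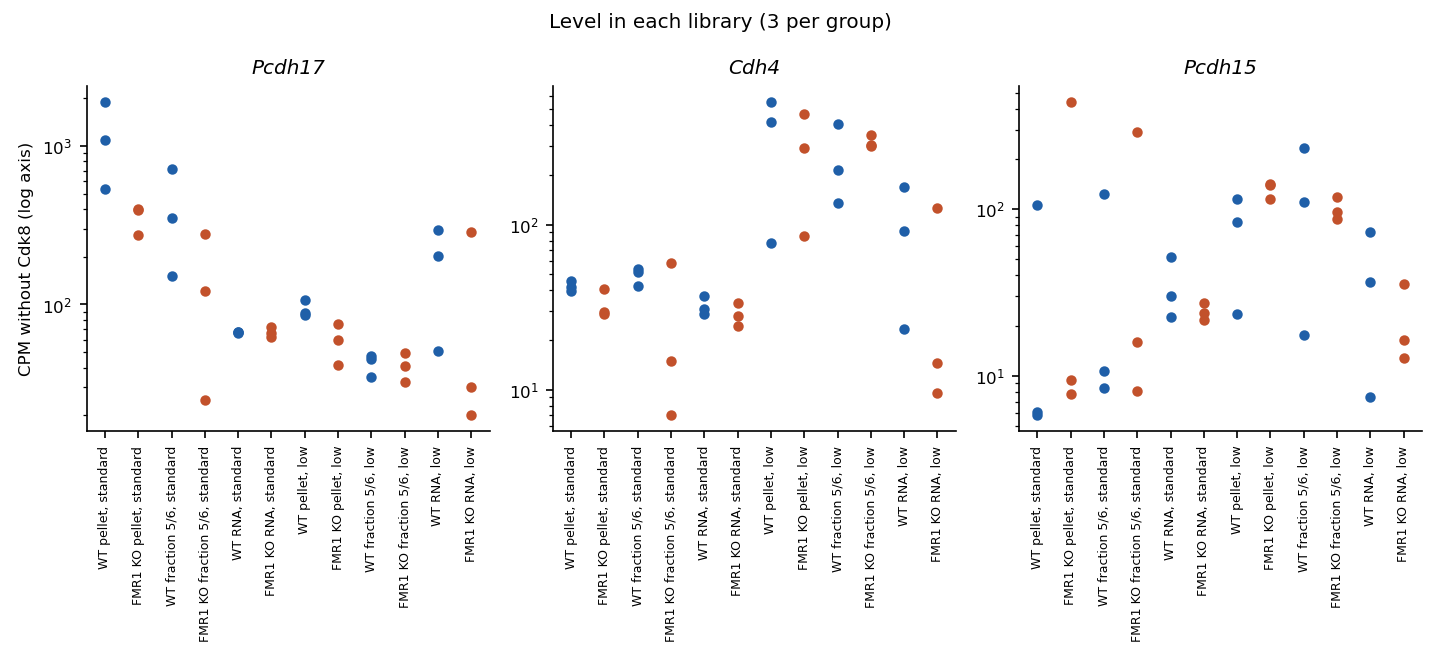
Levels of Pcdh17, Cdh4 and Pcdh15 in each of the 36 libraries by group, in CPM without Cdk8 on a log axis. Pcdh17 is highest in the WT standard pellets (539 to 1903 CPM), Cdh4 is highest in low nuclease libraries (up to 556 CPM) and Pcdh15 jumps in single libraries (up to 440.8 CPM).

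The preparations were compared in the pellet. In WT 1 of 95 genes was higher in the standard pellet and 74 were lower, against 16.7% and 22.9% of all genes (39.7% together), with a median of -1.60 against -0.03 over all genes. Of the 74, 35 were nested rows, and 39 of 60 outside them were lower, while 7 of 13 alpha and 16 of 21 gamma stretches were. In FMR1 KO 2 were higher and 23 lower, against 13.7% and 15.6% (29.3% together), with a median of -0.98. Outside the nested rows 16 of 60 were lower, with 1 of 13 alpha and 2 of 21 gamma stretches. Among the lowest outside the clusters was Cdh4, at -2.48 (adjusted p = 0.019) in WT and -2.59 (adjusted p = 0.021) in FMR1 KO, and Pcdh9 was at -1.89 and -1.62. Celsr2 fell by 1.63 in WT and by 1.33 (adjusted p = 0.039) in FMR1 KO, and Pcdh19 by 1.75 and 1.02. Pcdh17 was the gene that rose in WT and also rose in FMR1 KO. The other rise in FMR1 KO, that of Celsr1, rests on the single library of 85.0 CPM. The concentration of MgCl2, the nuclease and the preparation itself cannot be told apart here.

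Clustered protocadherins were treated by cluster. The beta genes, whose counts are uncertain for the overlap given above, summed to 13.9, 13.9 and 26.9 CPM in WT standard pellets and 26.2, 10.7 and 21.7 CPM in FMR1 KO pellets. In RNA they summed to 25.8, 24.1 and 27.2 CPM in WT and 28.6, 20.2 and 30.2 CPM in FMR1 KO. With low nuclease they separated pellet from fraction 5/6, with 76.2, 74.7 and 96.3 CPM against 20.2, 33.3 and 25.4 CPM in WT, and 20 of 21 genes in WT and 17 of 21 in FMR1 KO were called higher in the pellet, beside 13.4% and 12.7% of all genes. Their median ratios there were 1.74 and 1.42. Pcdhb15 was called higher in pellet over RNA, at 1.02 (adjusted p = 0.004) in WT and 1.69 (SE 0.24, adjusted p = 7.8e-05) in FMR1 KO. In WT this rests on the TMM scale, with pellets of 0.940, 0.736 and 0.839 CPM and RNA of 1.04, 0.795 and 0.880 CPM, whereas the FMR1 KO pellets of 1.62, 1.44 and 1.44 CPM were above RNA of 1.10, 0.899 and 1.01 CPM. Pcdhb22 was lower in FMR1 KO, at -1.17 (adjusted p = 0.031).

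In the alpha and gamma clusters each variable exon is spliced to shared constant exons, so a row's count contains those of the genes that follow it. A stretch count, each gene's count minus that of the next, was therefore used, an alternative chosen after the data were seen, and the last stretches (Pcdhac2 and Pcdhgc5) hold the constant exons. The whole gamma cluster held 78.4, 82.1 and 133 CPM in WT pellets, 116, 59.4 and 117 CPM in FMR1 KO pellets, 176, 158 and 181 CPM in WT RNA and 171, 125 and 184 CPM in FMR1 KO RNA. The last stretch took 53.5% to 60.0% of the gamma counts in RNA but 11.9% to 16.0% in the pellet and 11.7% to 17.5% in fraction 5/6. In the alpha cluster it took 59.0% to 63.4% in RNA, 28.9% to 37.2% in the pellet and 35.0% to 55.2% in fraction 5/6. The ranges of RNA and footprints did not overlap in either cluster. The last stretches hold much untranslated sequence, with 7627 exonic bases in gamma and 5888 in alpha. The coding sequences of Pcdhgc5 and Pcdhac2 have 2832 and 3018 bases. A variable stretch such as that of Pcdhga2 has 2573 exonic bases, with a coding sequence of 2793 bases. The part of untranslated sequence in these shares and in the stretch ratios to RNA below was not tested.

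By edgeR, 18 of 21 gamma stretches were higher in the pellet than in RNA and 1 lower in each genotype, with medians of 1.49 and 1.69, against 30.7% and 36.0% of all genes higher and lower in WT and 31.9% and 34.8% in FMR1 KO. These medians hold the TMM shift given above. In plain CPM the gamma stretches other than the last summed to 67.0, 70.7 and 116 CPM in WT pellets and 75.4, 71.2 and 84.3 CPM in WT RNA, which overlap, and to 102.5, 49.9 and 102.04 CPM and 79.2, 50.1 and 83.8 CPM in FMR1 KO, which overlap too. Taken singly, 17 of the 18 had a higher mean CPM in pellets than in RNA in each genotype. The lower one was the last stretch, at -1.71 (SE 0.18, adjusted p = 7.4e-06) in WT and -1.72 (adjusted p = 7.6e-06) in FMR1 KO. The stretch of Pcdhgc4, a gamma gene needed for survival of interneurons, took 18.6% to 22.6% of the gamma counts in the pellet and 3.66% to 5.18% in RNA. It held 15.4, 17.1 and 27.6 CPM in WT pellets and 6.71, 8 and 9.39 CPM in WT RNA, with no overlap, and its ratio was 2.44 (SE 0.31, adjusted p = 3.5e-05) in WT and 2.45 in FMR1 KO. Pcdhga1 was at 2.56 and 3.28 and Pcdhga2 at 2.74 and 2.95. Of the alpha stretches 6 of 14 in WT and 8 of 14 in FMR1 KO were higher and 1 was lower, the last one at -0.60 (adjusted p = 0.035) and -0.56 (adjusted p = 0.045). Of those called higher, 4 of 6 and 5 of 8 had a higher mean CPM in pellets, and the alpha stretches other than the last summed to 15.2, 15.9 and 35.4 CPM in WT pellets and 23.5, 22.0 and 21.8 CPM in WT RNA. Pcdha5 was at 2.09 and 1.94. By edgeR no stretch was called between genotypes, with 0 at an unadjusted p under 0.05 in RNA and pellet and 1 in fraction 5/6. Without the doubted library none was called in fraction 5/6 either, with 0 alpha and 1 gamma stretch unadjusted. Between pellet and fraction 5/6 none was called with all libraries, with 2 alpha and 2 gamma stretches unadjusted in WT and 2 and 10 in FMR1 KO. Without the doubted library, a setting added after the data were seen, 1 of 12 alpha and 7 of 21 gamma stretches in WT and 1 and 3 in FMR1 KO were higher in the pellet, and 0 lower, beside 10.0% and 11.1% of all genes higher.

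**Figure D5:**
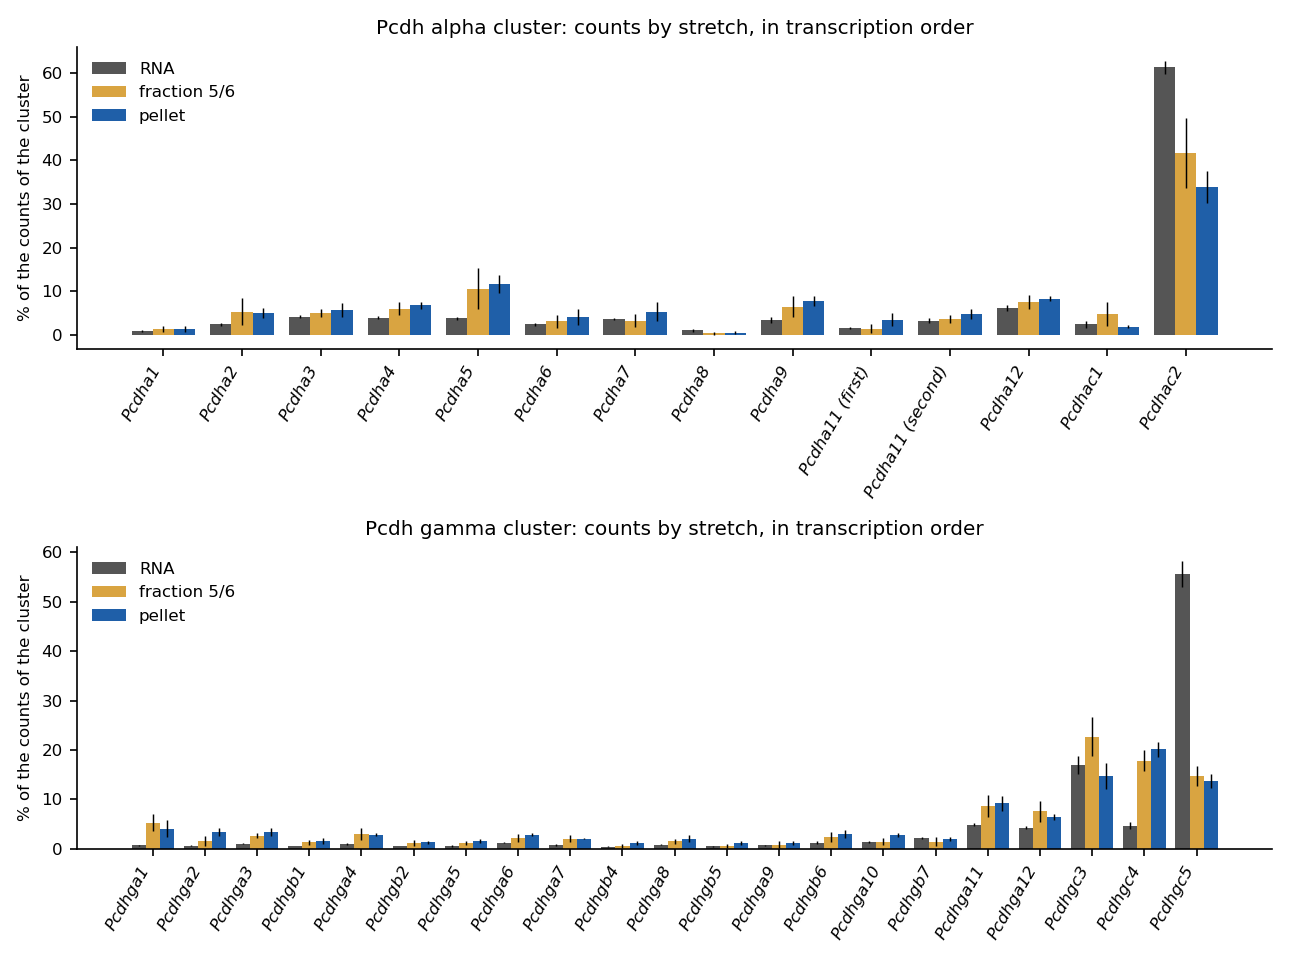
Share of the alpha and gamma cluster counts that falls in each stretch, in percent, as mean ± SD over the 6 standard libraries of both genotypes, for RNA, fraction 5/6 and pellet. The last gamma stretch holds 53.5% to 60.0% of RNA counts and 11.9% to 16.0% of pellet counts, and the Pcdhgc4 stretch 3.66% to 5.18% and 18.6% to 22.6%.

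In the low nuclease libraries the Pcdhga12 stretch varied widely. In pellets it jumped between libraries of a group, taking 39.1%, 5.47% and 48.7% of the gamma counts in WT and 7.24%, 6.18% and 55.9% in FMR1 KO, against 5.24% to 7.10% in standard pellets. In fraction 5/6 it took 43.8%, 56.3% and 72.8% in WT and 8.16%, 5.71% and 6.49% in FMR1 KO. Its level there was 73.5, 176 and 321 CPM in WT and 6.56, 7.87 and 7.54 CPM in FMR1 KO, so the genotypes did not overlap. The log2 FMR1 KO over WT value was -4.68 (SE 0.53) with an adjusted p of 0.14 by edgeR, not called. The whole gamma cluster, which contains it, held 168, 312 and 440.4 CPM in WT fraction 5/6 and 80.4, 138 and 116 CPM in FMR1 KO. Ratios of the gamma rows that contain this stretch therefore rest partly on it in that preparation.

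Intracellular partners of cadherins were read beside the receptors. Of 14 catenins and other junction partners, 7 were called higher in pellet over RNA in WT and 8 in FMR1 KO, and 3 lower in each, with medians of 1.28 and 1.32, beside 30.6% and 31.7% of all genes higher and 35.9% and 34.8% lower. Ctnna1 and Ctnna2, the alpha-catenins that bind actin, were at 1.24 and 1.51 in WT, Ctnnb1 (beta-catenin) was at 1.90 and Ctnnd1 (p120-catenin) at 1.42. Their FMR1 KO values were 1.31, 1.55, 1.77 and 1.41. The partners called lower were the adhesion receptors Nectin3 (-2.18 and -2.29) and Nectin1 (-0.80 and -0.82) and the neuronal catenin Ctnnd2 (-0.39 and -0.67). Of 10 planar polarity genes, which act with Celsr proteins, 3 were higher and 7 lower in WT and 2 and 6 in FMR1 KO, with medians of -1.36 and -0.97. Vangl2, a core polarity protein, was at -0.91 and -0.78. By edgeR none of either list was called between genotypes in RNA, pellet or fraction 5/6, with 1 partner in fraction 5/6 and no other gene at an unadjusted p under 0.05, and with 1 partner and 1 polarity gene there without the doubted library. In the interactions with genotype none was called, with 1 polarity gene unadjusted for pellet over RNA and 1 partner for pellet over fraction 5/6. In pellet over fraction 5/6 none was called with all libraries, a fit that called 1 gene in WT and 0 in FMR1 KO over all genes. Without the doubted library 3 of 14 partners in WT and 2 in FMR1 KO were higher, and 2 of 9 polarity genes in each, with 0 lower, beside 10.1% and 11.1% of all genes higher.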

How the data were processed

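RPFs and RNA were measured in the 36 libraries described above. The authors deposited raw counts per gene and footprint peaks with their heights (signal); the submitters' processing notes name cutadapt 2.10, Bowtie2 2.3.5, STAR 2.7.8a, SAMtools 1.19.2, featureCounts 2.2.0, Picard and GRCm38. Of 16614 rows, 16587 had a biotype in GENCODE M21, 26 were not protein coding and were left out, and 92 had no gene name. Cdk8 was removed before library sizes. Counts were filtered with filterByExpr, scaled by TMM and tested with edgeR 4.0.16 (R 4.3.3, limma 3.58.1), with Benjamini-Hochberg adjustment over all genes tested and a threshold of 0.05. Only the kinds of library and preparations compared entered a fit, but with the libraries of both genotypes. The WT and FMR1 KO ratios thus shared a fit and its estimate of the spread. DESeq2 1.42.0 was an alternative, and the code was tested on simulated data. Levels are plain CPM. Tables were handled in Python 3.11.15 (pandas 2.3.3, numpy 2.4.6) and drawn with matplotlib 3.10.9. The genes, lists and tests were chosen with earlier results of these data known. Named genes were all those outside the clusters as far as the results turned on them, up to 3 highest of each cluster and, per comparison, the 5 largest rises and falls among called genes whose libraries did not overlap. All count columns were mapped to samples (0 were not). Counting error sets the precision of low genes: 7 to 30 of the 98 had fewer than 10 counts in a standard footprint library.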

Additional observations from a re-analysis of the deposited data

How the results depend on the processing

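Alternatives were DESeq2, Cdk8 kept, library size alone, no filter, all 18 standard libraries in 1 fit, all gene types, each library left out, the low nuclease libraries and, chosen after seeing the data, stretch counts for nested genes and leaving out WT fraction 5/6 replicate 3 with FMR1 KO pellet replicate 2. Of the counts of called genes, 194 stayed within 1.5 times and 40 moved, outside the fits that leave out 1 library. The cause was not tested. The counts below show only how the number called moved, since calls over all genes change with the setting too. The share of all genes is not printed beside them, so they are not results about these genes. In pellet over RNA the number higher in WT was 1 by library size alone, 0 with low nuclease libraries and 36 with stretch counts, and the number lower was 64 by library size alone and 26 with low nuclease. In FMR1 KO the number higher was 3, 1 and 45 under the same settings in that order, and the number lower was 55 by library size alone, 38 with low nuclease and 6 with all 18 libraries. For fraction 5/6 over RNA the number higher in WT was 2 by library size alone, 1 with low nuclease and 16 with stretch counts, and lower 76 by library size alone and 65 with low nuclease. In FMR1 KO it was 0 by library size alone, 1 with all 18 libraries, 1 with low nuclease and 5 with stretch counts, and lower 71 by library size alone, 87 with low nuclease and 19 with stretch counts. In pellet over fraction 5/6 the number higher was 55 in WT and 57 in FMR1 KO with low nuclease, 29 and 27 without WT fraction 5/6 replicate 3 and FMR1 KO pellet replicate 2, and 8 in FMR1 KO with DESeq2 or with all 18 libraries. Standard over low nuclease pellets in FMR1 KO gave 1 higher with Cdk8 kept, by library size alone or with no filter, and 57 lower with DESeq2 and 77 by library size alone. DESeq2 called 1 lower gene in the pellet between genotypes (Pcdh17), 1 in fraction 5/6 (Cdh10, with the doubted library kept) and 1 in the interaction with occupancy (Pcdh17).

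Leaving out each library in turn, the number called in pellet over RNA ranged from 7 to 13 higher and 7 to 24 lower in WT (7 and 24 without WT pellet replicate 3), and from 5 to 13 lower in FMR1 KO (6 without FMR1 KO pellet replicate 1, 5 without FMR1 KO RNA replicate 1, 6 without RNA replicate 3). The interaction ranged from 0 to 1 lower, Pcdh17 being called without WT pellet replicate 3. In fraction 5/6 over RNA it ranged from 1 to 6 higher in WT (3 without WT fraction 5/6 replicate 2, 1 without WT RNA replicate 2, 3 without WT RNA replicate 3) and 10 to 58 lower (10 without WT fraction 5/6 replicate 1, 58 without replicate 3). In FMR1 KO it ranged from 0 to 3 higher (0 without any of the FMR1 KO RNA libraries, 1 without FMR1 KO fraction 5/6 replicate 1 or any WT RNA library) and 14 to 53 lower (53 without WT fraction 5/6 replicate 3, 14 without FMR1 KO fraction 5/6 replicate 2, 17 and 16 without FMR1 KO RNA replicates 1 and 3). In pellet over fraction 5/6 it ranged from 0 to 31 higher in WT and 0 to 24 in FMR1 KO, both highest without WT fraction 5/6 replicate 3, and was 4 in FMR1 KO without WT fraction 5/6 replicate 1. In standard over low nuclease pellets it ranged from 36 to 80 lower in WT (36 without WT pellet replicate 1, 46 without replicate 2, 44 without WT low nuclease pellet replicate 3) and in FMR1 KO from 1 to 3 higher and 2 to 65 lower (65 without FMR1 KO low nuclease pellet replicate 1, 2 without replicate 2, 37 without WT pellet replicate 3, 14 and 13 without WT low nuclease pellet replicates 1 and 2, 4 without FMR1 KO low nuclease pellet replicate 3, and 6, 8 and 6 without FMR1 KO pellet replicates 1, 2 and 3).

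Of the named genes' ratios, 312 kept direction and call, 16 lost the call and 7 reversed, all 7 with low nuclease libraries. The reversed log2 values were -1.12 in WT and -1.5 in FMR1 KO for Pcdh17, -1.0 for Pcdh7, -0.46 for Cdh3 and -0.97 for Pcdhb15 in FMR1 KO pellet over RNA. In fraction 5/6 over RNA they were -2.38 for Pcdh17 in WT and 0.16 for Cdh15 in FMR1 KO. With 1 library left out, 434 kept their call and 46 lost it.

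The replicate numbers were not taken as pairs. Of 45 pairs of standard libraries with the same number, 16 had a correlation of deviations over 0.1, from -0.20 to 0.27, and in 16 of the 45 a library was nearest to that of its own number. In the low nuclease preparation these were 22 and 24 of 45, from -0.35 to 0.58. With the replicate number as a block, FMR1 KO fraction 5/6 over RNA had 0 higher, and standard over low nuclease pellets in FMR1 KO had 1 higher and 35 lower. Other counts stayed within 1.5 times under the block. Simulated 2-fold changes were recovered for 16.5% of genes in the pellet between genotypes and 8.08% in pellet over fraction 5/6, against 87% in RNA, so most 2-fold differences in footprints would have been missed.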
